A study of Mus musculus with 6 samples.

Results

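Respiratory chain genes were taken as all rows of the deposited gene table whose symbol names a subunit of complex I (Nduf, which also takes in the assembly factors named Ndufaf), complex II (Sdha to Sdhd), complex III (Uqcr), complex IV (Cox4 to Cox8) or the ATP synthase (Atp5), or a mitochondrially encoded subunit (prefix mt-). The rule gave 110 of 22322 rows, of which 97 were nuclear and 13 mitochondrial. Atp5o stood in the table under a pair of identifiers, and the second (ENSMUSG00000116933) was at 0 in every library. By role, 38 rows were complex I subunits, 8 complex I assembly factors, 4 complex II, 8 complex III, 21 complex IV (with Ndufa4 and Ndufa4l2, now counted there), 18 ATP synthase and 13 mitochondrially encoded. Cytochrome c and cytochrome c1 (Cycs, Cyc1) fall outside the rule and were counted with the surrounding pathway.

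The respiratory chain of the inner mitochondrial membrane passes electrons from NADH and succinate to oxygen through complexes I to IV, and the proton gradient that this builds drives the ATP synthase, often called complex V. Most subunits are encoded in the nucleus and imported, while a small set of hydrophobic subunits of complexes I, III, IV and V is encoded by mitochondrial DNA and transcribed inside the organelle, so that each complex except complex II needs products of both genomes. Double-positive (DP) thymocytes are the CD4+CD8+ stage of T cell development. In the normal thymus they are mostly small cells that no longer divide and that draw on respiration for ATP.

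RNA had been sequenced from sorted DP thymocytes of 3 control samples (labelled WT, Paxbp1fl/fl) and 3 Paxbp1 cKO samples (Paxbp1fl/fl Lckcre), all without treatment. Both groups carried loxP sites around exon 8 of Paxbp1, and the controls were littermates that lacked the Cre transgene, whose expression is driven by the Lck promoter in early thymocytes. The study used mice of 4 to 7 weeks and mixed sexes on a C57BL/6 background, and the labels give no age or sex for a sample. Neither the labels nor the methods say whether each library came from a separate mouse, so p-values measure the spread between these samples. The comparison asks whether transcript levels of the respiratory chain differed between the genotypes, and whether the nuclear and the mitochondrial genes differed in this. Deletion of Paxbp1 and the Cre transgene went together in the cKO samples, so their effects cannot be told apart.

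Total counts ranged from 18963775 to 26252248 between libraries. Levels are given as CPM, counts scaled to a common library size with TMM factors, on which a single count stood for 0.0388 to 0.0520. The paper reports larger cell size (forward scatter) of cKO thymocytes and increased proliferation of cKO DP cells by BrdU uptake. CPM are relative to the counts of a library and give no amount per cell. Counts of Paxbp1 are per gene and do not measure exon 8, and were 774, 318 and 400 in the control libraries and 851, 905 and 1075 in the cKO libraries, so they did not check the labels. All 12 markers of DP thymocytes on the list used were measured, with a summed level of 11769 to 13657 CPM in control and 8731 to 10252 CPM in cKO libraries. At an adjusted p below 0.05 (edgeR) 4 of them fell (Cd1d1, Rag1, Cd3e and Cd8b1), where 5.89% of all genes tested fell. Of 15 macrophage markers, 10 passed the filter on low counts and 5 of these rose (C1qb, C1qc, Vcam1, Adgre1 and Cd68), where 4.47% of all genes rose. The summed level of all 15 was 36.7 to 77.3 CPM against 101 to 143 CPM. Most of this sum was Apoe and Lyz2, which did not pass the test. Adgre1, Timd4 and Fcgr1 were at 0 in every control library, and Mertk and Marco at 0 in all 6. Adgre1 thus passed the filter through its cKO libraries alone. Vcam1 also needed its cKO libraries to pass, at 0.518, 0.360 and 0.194 CPM in control and 4.02, 3.49 and 4.94 CPM in cKO libraries. The count of 5 that rose thus includes genes that entered the test through the group where they were high. Of the 2 B cell markers tested 1 fell (Cd79b), and none of the 5 erythroid, 3 dendritic cell and 4 thymic epithelial markers tested passed the test. No neutrophil marker passed the filter. What these other cells contributed to the respiratory chain values was not tested, and in bulk samples fewer cells of a type and less RNA per cell cannot be told apart.

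Promoter sequences are shown here for 3 genes of complex II and for Atp5h, whose values are described below, because nuclear respiratory genes are known for sites of the factors NRF-1 (encoded by Nrf1), GABPA and YY1 close to their start. Each runs 5′ to 3′ on the gene's strand from 250 bases before to 50 bases after the RefSeq start (GRCm38.p6), and capitals mark exact matches on either strand to the letters searched, GCGCNTGCG for NRF-1, CCGGAAG for GABPA and AAGATGGC for YY1. Sdha lies at chr13:74350191-74350490 on the minus strand and held 3 NRF-1 matches. Sdhb at chr4:140961021-140961320 on the plus strand held 1 GABPA match. Sdhd at chr9:50603800-50604099 and Atp5h at chr11:115419870-115420169, both on the minus strand, each held 1 NRF-1 and 1 GABPA match.
Sdha: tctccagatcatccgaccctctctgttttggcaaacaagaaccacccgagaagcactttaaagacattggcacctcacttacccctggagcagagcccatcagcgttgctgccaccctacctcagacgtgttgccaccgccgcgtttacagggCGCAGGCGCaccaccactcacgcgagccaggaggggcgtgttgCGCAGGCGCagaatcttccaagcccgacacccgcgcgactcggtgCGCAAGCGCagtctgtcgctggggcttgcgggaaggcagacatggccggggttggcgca
Sdhb: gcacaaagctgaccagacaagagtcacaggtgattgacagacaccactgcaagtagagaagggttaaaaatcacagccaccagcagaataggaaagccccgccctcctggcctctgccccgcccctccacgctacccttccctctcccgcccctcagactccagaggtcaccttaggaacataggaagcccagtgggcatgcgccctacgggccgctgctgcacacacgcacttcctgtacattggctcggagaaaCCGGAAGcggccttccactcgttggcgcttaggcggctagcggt
Sdhd: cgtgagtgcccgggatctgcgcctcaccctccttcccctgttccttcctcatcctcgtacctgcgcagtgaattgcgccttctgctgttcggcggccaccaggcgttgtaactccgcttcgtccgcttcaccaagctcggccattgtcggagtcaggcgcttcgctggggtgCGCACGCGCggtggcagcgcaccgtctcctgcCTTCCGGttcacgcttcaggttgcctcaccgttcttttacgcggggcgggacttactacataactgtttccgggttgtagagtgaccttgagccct
Atp5h: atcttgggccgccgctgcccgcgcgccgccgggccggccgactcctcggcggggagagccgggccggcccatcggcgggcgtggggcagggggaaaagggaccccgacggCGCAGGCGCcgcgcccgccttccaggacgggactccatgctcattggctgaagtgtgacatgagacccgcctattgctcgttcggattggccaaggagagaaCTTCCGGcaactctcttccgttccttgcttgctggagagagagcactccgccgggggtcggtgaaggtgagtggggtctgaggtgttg

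A promoter sequence was matched by symbol for 77 of the 96 nuclear symbols. NRF-1 letters were found in 26 of these 77 (33.8%), against 7.12% of the promoters of 27025 genes. For GABPA, the shares were 24.7% (19 genes) against 9.93%, and for YY1 14.3% (11 genes) against 3.19%. At least 1 of the 3 motifs was present in 46 promoters (59.7%), and in none of them did matches to different motifs overlap. Among the respiratory chain genes tested, the 26 with the NRF-1 letters had a median log2 fold change (cKO over control) of -0.03 and the 49 without of -0.005. The medians were -0.08 with and -0.007 without the GABPA letters, and -0.001 and -0.03 for YY1. A match describes the letters in this window and not binding.

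Of 102 respiratory chain genes tested 1 passed the test, and most differed little between the genotypes. Of the 110 rows, 102 (89 nuclear and 13 mitochondrial) passed the filter on low counts, and 8 did not (Cox4i2, Cox5b-ps, Cox7b2, Cox8b, Cox8c, Ndufa4l2, Ndufb11b and the second Atp5o row). At an adjusted p below 0.05 (edgeR's quasi-likelihood test, Benjamini-Hochberg over 11488 genes), 1 gene rose, Uqcrb, and 0 fell, while of all genes tested 10.4% passed, 4.47% higher and 5.89% lower. None passed an absolute log2 fold change above 1 as well, against 2.76% of all genes. DESeq2 gave the same counts of 1 and 0. An unadjusted p below 0.05 was reached by 3 of the 102 (2.94%: Uqcrb, Atp5h and Sdhd), where 27.9% of all genes reached it.

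Small differences were the rule. The median absolute log2 fold change was 0.11 over the 102 genes, against 0.30 over all genes tested and 0.23 over the 4572 genes with a mean of at least 50 CPM. Of the 102 genes, 87 (85.3%) lay within 0.25 of 0 on the log2 scale. The share was 43.7% of all genes and 54.0% of those with at least 50 CPM. Only 3 were beyond 0.5 (Cox6a2, Cox7a1 and mt-Atp8), against 28.1% of all genes and 14.9% of those with at least 50 CPM. The 95% interval of the fold change lay within 1 of 0 for 99 genes (97.1%, all genes 65.7%). It lay within 0.5 of 0 for 63 (61.8%, all genes 21.9%), but for 0 of the 13 mitochondrial genes. For genes with at least 50 CPM these shares of intervals were 92.3% and 42.1%. The respiratory chain genes had a median level of 120 CPM, against 34.5 CPM for all genes tested. The signed median was -0.004 over the 102 genes, -0.03 over the nuclear, 0.11 over the mitochondrial and -0.002 over all genes tested.

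**Figure D1:**
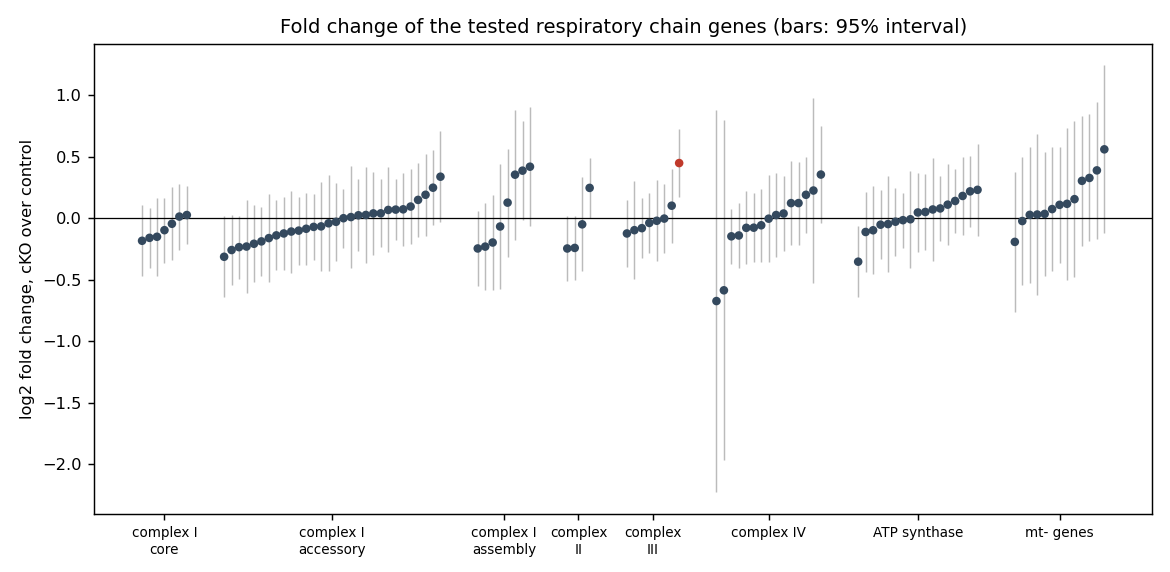
Log2 fold change (cKO over control, vertical axis) of the 102 tested respiratory chain genes, grouped by role and sorted within a group, with 95% intervals as bars. Uqcrb, in red, is the only gene past an adjusted p of 0.05, and the widest intervals belong to Cox6a2 and Cox7a1, which were near the filter on low counts.

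The expression level per gene length (mean FPKM of the control libraries, as deposited) overlapped between mitochondrial and nuclear genes, with mitochondrial genes at the top. The 6 most abundant respiratory chain genes were mitochondrial, from mt-Atp6 (FPKM 5540.0 ± 795, SD, n = 3) and mt-Cytb (4079 ± 624) through mt-Co3, mt-Co1 and mt-Co2 to mt-Nd1 (1288 ± 77.2). Atp5b, the catalytic beta subunit of the ATP synthase, was the most abundant nuclear gene (FPKM 1008 ± 127), followed by Cox6a1 (593 ± 77.5) and Atp5h (562 ± 75.8). The neighbours Cox6a1 and Atp5h in this order differed by less than their SD. The lower mitochondrial genes were within the nuclear range, down to mt-Nd3 at FPKM 79.0 ± 1.84 and mt-Nd6 at 75.4 ± 3.05. Complex I assembly factors, which help to build the complex but do not remain in it, were the lowest class (median 13.2), between FPKM 6.16 for Ndufaf4 and 45.2 for Ndufaf3.

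**Figure D2:**
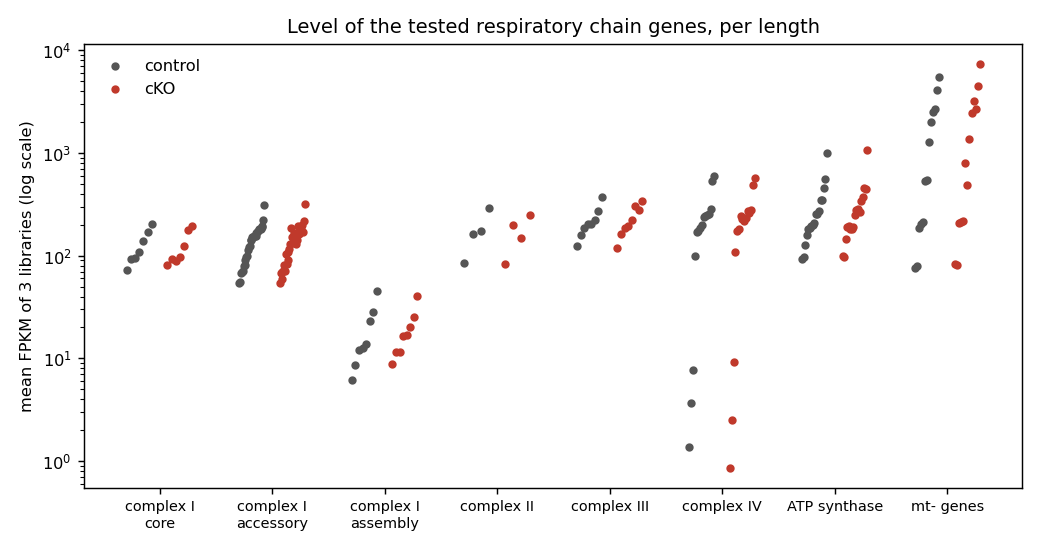
Mean FPKM of the 3 control (grey) and 3 cKO (red) libraries, on a log axis, for each tested respiratory chain gene by role. The highest mitochondrial gene, mt-Atp6, had a control mean of 5540.0 and the lowest assembly factor, Ndufaf4, one of 6.16, and 3 complex IV isoform genes lie below the other subunits of that complex.

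Complex I takes electrons from NADH and is the largest complex. None of its 7 nuclear core subunits passed the test, and all 7 had log2 fold changes within 0.25 of 0. Ndufs1, the large iron-sulfur subunit, was measured at 173, 171 and 179 CPM in control and at 167, 182 and 184 CPM in cKO libraries, with overlapping groups and an adjusted p of 0.910. Ndufs3 was the one core subunit whose groups did not overlap, with 108 to 119.7 CPM in control and 99.0 to 104 CPM in cKO libraries (log2 fold change -0.16, adjusted p = 0.381), and 1 near-identical copy of it is annotated. Ndufs7, Ndufs8, Ndufv1 and Ndufv2, which carry the other redox centres or the NADH site, had log2 fold changes of -0.15, -0.10, 0.01 and -0.05.

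Among the 30 accessory subunits tested, 13 fold changes were above and 17 below 0, the largest being Ndufab1, the acyl carrier protein of mitochondria, and Ndufa7. Ndufab1 was at 79.4, 129.6 and 115 CPM in control and at 143, 131 and 135 CPM in cKO libraries. The groups did not overlap, and the log2 fold change of 0.34 ± 0.17 (SE) did not pass (adjusted p = 0.224). Ndufa7 was at 65.5, 83.4 and 90.5 CPM against 68.9, 65.2 and 58.6 CPM, a log2 fold change of -0.31 ± 0.15 (adjusted p = 0.201). The first control library was the lowest of the controls in both. Of the 8 assembly factors 4 were above and 4 below 0 and none passed. Ndufaf6 (9.31 ± 0.303 CPM against 12.4 ± 1.48 CPM, SD) and Ndufaf4 (18.2 to 25.9 CPM against 26.3 to 31.8 CPM) had the highest values, 0.42 and 0.39 on the log2 scale, with adjusted p of 0.244 and 0.201. Ndufab1 and these assembly factors were singled out after their values were seen.

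Complex II, succinate dehydrogenase, is the only complex with no mitochondrially encoded subunit and is also an enzyme of the citric acid cycle. Its 4 genes differed in sign and none passed the test. Sdha, the flavoprotein that oxidizes succinate, was at 434, 532 and 537 CPM in control and at 403, 436 and 431 CPM in cKO libraries, and the groups overlapped in the first control library alone. Sdhb, the iron-sulfur subunit, was at 294, 339 and 381 CPM against 292, 282 and 281 CPM, without overlap. Their log2 fold changes were -0.24 ± 0.12 (adjusted p = 0.209) and -0.25 ± 0.12 (adjusted p = 0.211). Sdhd, a membrane anchor, was higher in each cKO library, at 229.6, 239 and 254 CPM against 191, 199 and 220.1 CPM (log2 fold change 0.25 ± 0.11, adjusted p = 0.178). The other anchor, Sdhc, was at 82.3, 128 and 131 CPM against 104, 118 and 107 CPM, with overlapping groups (log2 fold change -0.05, adjusted p = 0.885).

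Complex III passes electrons from ubiquinol to cytochrome c, and holds the only respiratory chain gene that passed the test. Uqcrb (ENSMUSG00000021520, chr13:66900617-66905378 on the minus strand, GRCm38) encodes a small subunit close to the ubiquinone site. It was at 103, 127 and 130.1 CPM in the control and at 164, 157 and 169 CPM in the cKO libraries, so that the lowest cKO library lay above the highest control. The log2 fold change was 0.45 ± 0.12 (95% interval 0.17 to 0.72, edgeR adjusted p = 0.0466). The call was near the threshold: it held without the first control library (0.34, adjusted p = 0.0370) but not without any other library, where the adjusted p was 0.0710 to 0.169. At least 95% identity over at least 50% of the transcript was found for 3 annotated copies of Uqcrb (Gm2962, Gm16089 and Gm5457), none of them in the table, and a gene on the opposite strand, Gm10767, overlaps it, so its count may hold reads of these.

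The other complex III genes were closer to 0. The core proteins Uqcrc1 and Uqcrc2 had log2 fold changes of -0.13 and -0.08, and the Rieske iron-sulfur protein Uqcrfs1 of -0.04, at 246, 247 and 279 CPM in control and 247, 239 and 265 CPM in cKO libraries. Uqcr10, Uqcr11, Uqcrh and Uqcrq, the remaining small subunits, lay between -0.10 and 0.10. Cyc1 and Cycs did not pass either.

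**Figure D3:**
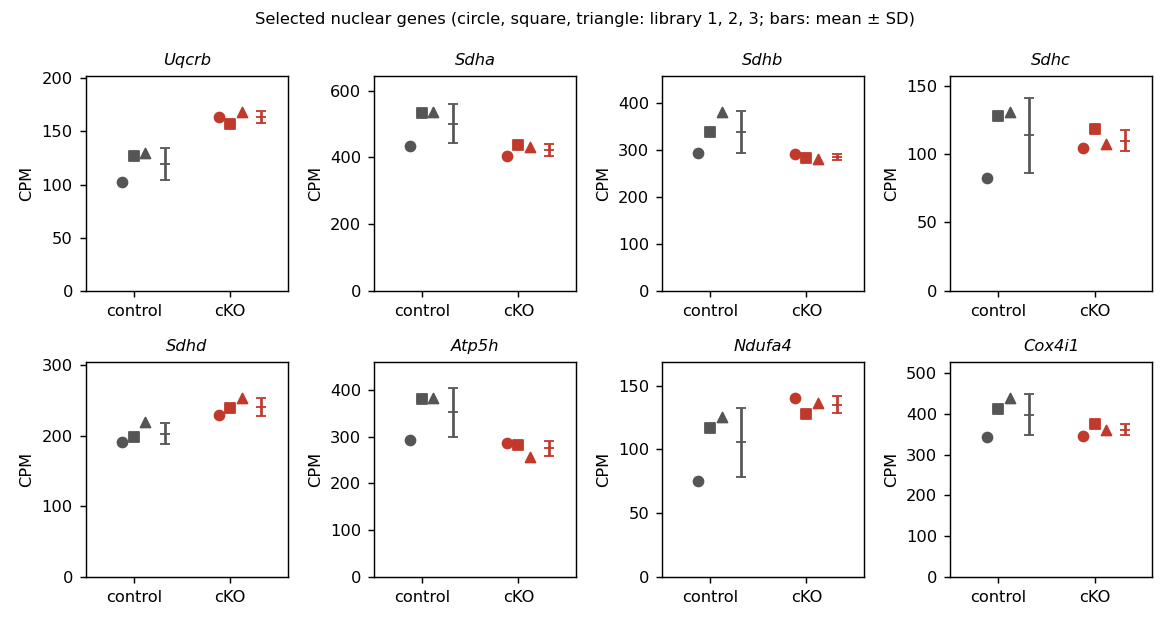
CPM of 8 nuclear genes in each library (control grey, cKO red, circle, square and triangle for libraries 1, 2 and 3), with mean ± SD beside the points and vertical axes that start at 0. Uqcrb, Sdhd and Ndufa4 have every cKO library above every control, Sdhb and Atp5h every cKO library below, and library 1 is the lowest of the controls in all 8 panels.

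Complex IV, cytochrome c oxidase, has subunits in tissue-specific forms, and DP thymocytes carried the forms known from most tissues. Cox4i1 was at FPKM 530.1 ± 59.0 in control libraries while Cox4i2, known from lung, had 2, 2 and 3 counts in control and 6, 10 and 3 in cKO libraries. Cox6a1 (FPKM 593) stood against Cox6a2 at 1.36, the heart and muscle form, Cox7a2 (243) against its muscle form Cox7a1 at 3.69, and Cox6b1 (285) against the testis form Cox6b2 at 7.63. Cox8a was at FPKM 249, while Cox8b had 1 count in 1 cKO library and Cox8c, Cox7b2 and Ndufa4l2 had 0 in all 6. The isoforms kept this order in both genotypes, and none of the 15 tested complex IV genes passed the test. Cox4i1, an early subunit in assembly, was at 343, 412 and 439.8 CPM against 347, 374 and 361 CPM (log2 fold change -0.14, adjusted p = 0.484), and Cox5a and Cox5b were at 0.19 and 0.04. Ndufa4 was at 74.9, 117 and 125 CPM against 141, 128 and 137 CPM, without overlap, at a log2 fold change of 0.35 ± 0.18 (adjusted p = 0.224). For Cox6a2 and Cox7a1, at under 2 CPM, the intervals ran from -2.23 to 0.88 and from -1.97 to 0.79, so that differences within these limits were not excluded.

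The ATP synthase makes ATP with the proton gradient. None of its 17 tested genes passed, and 16 lay within 0.25 of 0. Atp5a1, Atp5b and Atp5c1, the alpha, beta and gamma subunits of the catalytic head and its shaft, had log2 fold changes of -0.02, 0.08 and -0.03. For Atp5a1, at 1064 to 1176 CPM in control and 1063 to 1154 CPM in cKO libraries, the 95% interval was -0.24 to 0.21. The 3 genes of the c-ring, Atp5g1, Atp5g2 and Atp5g3, encode the same mature protein with different import sequences and were at 0.22, -0.01 and 0.05. Atp5h, a subunit of the peripheral stalk, stood apart, at 292, 381 and 384 CPM in control and 287, 282 and 257 CPM in cKO libraries, without overlap. The log2 fold change was -0.35 ± 0.13 and missed the threshold with an adjusted p of 0.107 by edgeR, while 3 near-identical copies of Atp5h are annotated.

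Groups that did not overlap were counted over all 102 genes. Every cKO library lay above every control for 8 genes (Ndufa5, Ndufab1, Ndufaf4, Ndufaf6, Sdhd, Uqcrb, Ndufa4 and Atp5e) and below for 6 (Ndufs3, Ndufs4, Ndufaf3, Sdhb, Cox7a2l and Atp5h), 14 in all, where 15.7% of all genes were higher, 17.3% lower and 33.0% either. All 14 were nuclear.

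The first control library was the lowest of the 3 controls for 76 of the 89 nuclear genes (85.4%), against 40.4% of all genes tested, and the nuclear share of all counts was 1.30%, 1.54% and 1.62% in the control and 1.48%, 1.50% and 1.48% in the cKO libraries. Without it the nuclear median log2 fold change was -0.14, Uqcrb stayed higher, and 5 genes were lower at an adjusted p below 0.05, among them Atp5h (-0.48, adjusted p = 0.00897), Sdha (-0.34, 0.0268), Sdhb (-0.34, 0.0333) and Ndufa7 (-0.44, 0.0349), all by edgeR. In that fit 8.68% of all genes were lower. Leaving out any other library gave 0 lower genes.

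Mitochondrially encoded transcripts varied more between the cKO libraries than between the genotypes. They made up 2.05%, 1.77% and 1.76% of all counts in the control and 3.19%, 1.88% and 1.45% in the cKO libraries, or 1.86% ± 0.163 against 2.17% ± 0.908 (SD, n = 3 each). Per count of nuclear respiratory genes the ratio was 1.57, 1.15 and 1.09 against 2.15, 1.26 and 0.976. The first cKO library was the highest of all 6 and the third the lowest, and this held for each of the 13 genes. Set against the control mean, a gene was 1.31 to 2.36 times as high in the first cKO library, 0.776 to 1.22 times in the second and 0.535 to 0.864 times in the third. The highest library was 2.28 times the lowest in the cKO group (median over the 13 genes) and 1.11 times in the control group. For the nuclear genes the order was the opposite, with 1.11 times in the cKO and 1.32 times in the control group.

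**Figure D4:**
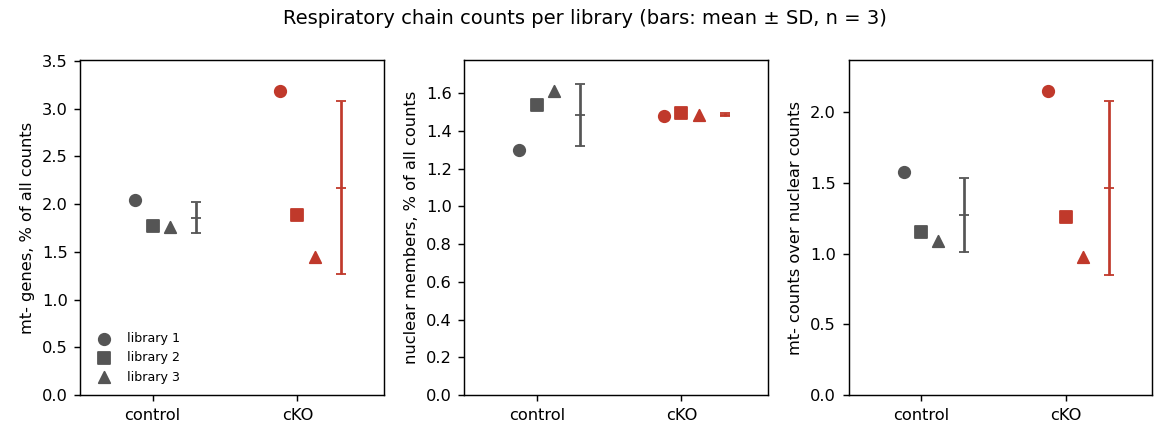
Share of all counts in the 13 mitochondrial genes, share in the nuclear respiratory genes, and ratio of the 2, per library (control grey, cKO red), with mean ± SD, n = 3, beside the points and axes from 0. The mitochondrial share spans 1.45% to 3.19% in cKO libraries and 1.76% to 2.05% in controls.

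None of the 13 mitochondrial genes passed the test, and the intervals of all of them reached beyond 0.5 on the log2 scale. Fold changes were above 0 for 11 and below 0 for mt-Nd4 and mt-Co3. The highest was mt-Atp8, a small subunit of the ATP synthase membrane part, at 132, 99.5 and 96.9 CPM in control and 258, 133 and 91.4 CPM in cKO libraries (log2 fold change 0.56 ± 0.31, adjusted p = 0.270). mt-Atp6, the proton channel subunit, was at 4352, 3494 and 3533 CPM against 7405, 4305 and 3178 CPM (0.39 ± 0.25, adjusted p = 0.347). The catalytic oxidase subunits mt-Co1 and mt-Co2 were at 0.33 and 0.30, and mt-Cytb, the only mitochondrially encoded subunit of complex III, at 0.11. The complex I subunits mt-Nd1, mt-Nd2, mt-Nd3, mt-Nd4l, mt-Nd5 and mt-Nd6 lay between 0.03 and 0.15 and mt-Nd4 at -0.19 (adjusted p = 0.678). The direction rested on 1 library: the median log2 fold change of the 13 was 0.11 with all libraries and -0.34 without the first cKO library. The mitochondrial minus the nuclear median was 0.14, and ran from -0.30 without that library to 0.33 without the third cKO library. With all 6 libraries it was 0.036 with limma-voom and 0.029 with the replicate number as a block in edgeR.

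Among the cKO libraries the balance of the mitochondrial transcripts was steadier than their sum. Their share of all counts differed 2.21-fold between the highest and lowest cKO library. In the controls it differed 1.16-fold, and single shares such as that of mt-Co3 were no steadier than the sum. Expressed as a share of the counts of the 13 genes, mt-Atp6 and mt-Co2 were higher in every cKO library than in every control, and mt-Nd1, mt-Co3, mt-Nd3, mt-Nd4l, mt-Nd4 and mt-Nd5 were lower, while the other 5 overlapped. By CPM none of the 13 was without overlap, against 33.0% of all genes, and no such share was computed for other sets of genes, so the count of 8 has no background beside it. mt-Nd4, a proton-pumping subunit of complex I, made up 4.14%, 4.05% and 3.91% of these counts in control and 3.13%, 3.16% and 2.79% in cKO libraries. mt-Co3 made up 10.1%, 11.9% and 12.5% against 9.87%, 9.70% and 9.64%. The count ratio of mt-Nd4 to mt-Atp6 was 0.200 ± 0.00773 in control and 0.132 ± 0.00463 in cKO libraries (SD, n = 3), a log2 difference of -0.59 that was -0.62 to -0.56 when each library was left out in turn. Shares are not independent, since a higher share of 1 gene lowers the others, and this view was chosen after the values were seen, so it is given without a test.

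**Figure D5:**
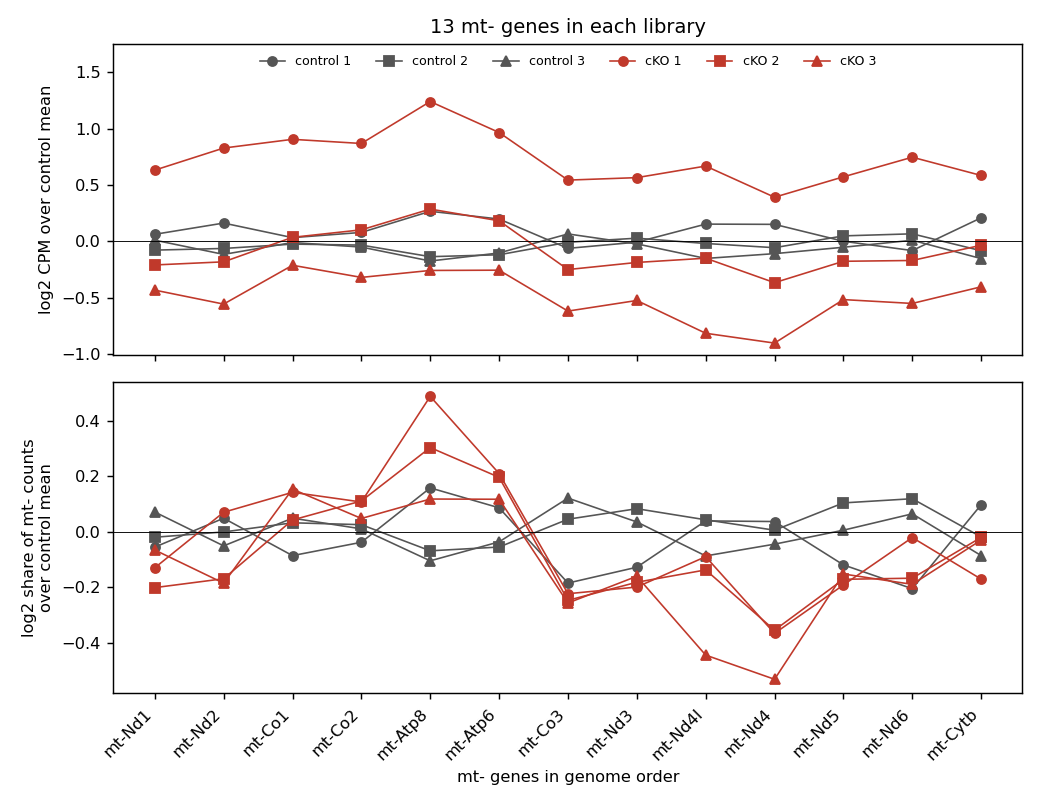
Upper panel, log2 of each mitochondrial gene's CPM over its control mean in every library; lower panel, the same for its share of the counts of the 13 genes, with genes in genome order and control grey, cKO red. The 3 cKO libraries lie far apart in the upper panel and closer together in the lower one, with mt-Nd4 lowest in each.

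Most of these genes lie head to tail on the heavy-strand transcript of mitochondrial DNA, which is cut into single messages mainly at the tRNAs between them. Some neighbours share bases, which limits what their counts can separate. On opposite strands, mt-Nd5 and mt-Nd6 share 14 bases (not shown). The boundaries between genes of the same strand are shown 5′ to 3′ on the plus strand of GRCm38 with the shared bases in capitals and 30 bases on each side. mt-Atp8 and mt-Atp6 share 43 bases (chrM:7897-7999 shown), mt-Atp6 and mt-Co3 share 1 (chrM:8577-8637), and mt-Nd4l and mt-Nd4 share 7 (chrM:10137-10203).
mt-Atp8 to mt-Atp6: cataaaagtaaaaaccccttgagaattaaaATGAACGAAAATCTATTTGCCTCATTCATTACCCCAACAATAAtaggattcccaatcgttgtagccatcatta
mt-Atp6 to mt-Co3: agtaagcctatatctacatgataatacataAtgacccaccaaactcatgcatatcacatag
mt-Nd4l to mt-Nd4: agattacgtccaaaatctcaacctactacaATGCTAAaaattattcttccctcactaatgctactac

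Although mt-Atp6 and mt-Co3 are adjacent, their count ratio was 2.12, 1.64 and 1.57 in control and 2.37, 2.39 and 2.28 in cKO libraries. The ratio of mt-Co3 to mt-Co1 was 0.513, 0.554 and 0.578 against 0.427, 0.450 and 0.414. In both ratios the first control library was the control nearest to the cKO group. Near-identical copies in the nuclear genome are annotated for 8 of the 13 genes, among them mt-Nd4, mt-Atp6, mt-Co1 and mt-Co3, none in the table, so reads could be shared with them.

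The genes that build, transcribe and regulate the chain were compared in the same fit by lists that hold 136 tested genes in all. Of these 7 rose and 9 fell (11.8%), close to the 10.4% of all genes. Assembly of complex I outside the Ndufaf genes (8 tested), assembly of complexes II and V (8), and subunits and carriers outside the rule (10, with Atp5md and Atp5mpl counted also above) held no gene that passed. Of 22 complex IV assembly genes 1 fell, Cox14, which takes part in making mt-Co1, at 91.9 to 99.2 CPM in control and 66.7 to 76.1 CPM in cKO libraries (log2 fold change -0.43 ± 0.12, adjusted p = 0.0449). Of 6 complex III assembly genes 1 fell, Lyrm7, which brings in the Rieske protein, at 16.8 to 19.7 CPM against 7.65 to 12.2 CPM (-0.92 ± 0.23, adjusted p = 0.0328).

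Among 29 genes of mitochondrial transcription and RNA handling 3 rose and 1 fell. Tfam, which packages mitochondrial DNA and starts its transcription, rose from 76.7, 76.0 and 72.9 CPM to 103, 101 and 111 CPM (log2 fold change 0.48 ± 0.11, adjusted p = 0.0285). The RNA granule protein Grsf1 rose by 0.59 ± 0.12 (adjusted p = 0.0179), and Fastkd3 from 25.8, 18.1 and 19.3 CPM to 46.2, 40.3 and 59.0 CPM (1.21 ± 0.20, adjusted p = 0.00825). Lrpprc, which stabilizes mitochondrial messages, fell from 48.3, 53.8 and 57.0 CPM to 33.9, 35.8 and 26.2 CPM (-0.73 ± 0.16, adjusted p = 0.0214). Of 11 genes of mitochondrial DNA replication, Polg2, the accessory subunit of the polymerase, rose by 1.56 ± 0.28 (adjusted p = 0.00991) and Dguok, a mitochondrial deoxynucleoside kinase, had a log2 fold change of -0.80 ± 0.18 (adjusted p = 0.0205). Of 11 regulators, Nrf1, the NRF-1 factor itself, fell from 252, 244 and 246 CPM to 169, 195 and 193 CPM (-0.41 ± 0.11, adjusted p = 0.0394), and the coactivator Pprc1 rose by 0.79 ± 0.20 (adjusted p = 0.0370).

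In the citric acid cycle, which feeds the chain, 3 of 18 genes fell and 2 rose. Among them Idh2 fell from 251, 269 and 273 CPM to 177, 169 and 165 CPM (log2 fold change -0.63 ± 0.10, adjusted p = 0.00825) and Ogdh by 0.52 on the log2 scale (adjusted p = 0.0201), while Fh1 rose by 0.58 and Dld by 0.41 (adjusted p of 0.0432 and 0.0451). Of 13 genes of coenzyme Q synthesis 1 fell, Coq8b, at 14.2, 16.5 and 19.6 CPM against 9.63, 6.92 and 6.09 CPM (-1.15 ± 0.25, adjusted p = 0.0200). All adjusted p-values in these paragraphs are from edgeR. Each of these 16 calls was lost when at least 1 library was left out: 1 was lost without the first control library, 10 to 13 without any one of control libraries 2 and 3 and cKO libraries 1 and 2, and all 16 without the third cKO library, where 42 of all genes rose and 78 fell.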

How the data were processed

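Sorted DP thymocyte RNA was turned into pre-amplified cDNA and sequenced on a HiSeq2500. The labels and the study's methods name different cDNA kits. The authors deposited 1 table with raw counts per gene, which are whole numbers, and FPKM per gene and library, normalized for gene length and depth. The log2 fold changes, p-values and FDR that the authors deposited beside them come from their own comparison and were not used. The submitters' processing notes name fastp 0.18.0, Bowtie2 2.2.8, HISAT2, StringTie and RSEM. Their roles, the genome build and the annotation were not given in the sources used here.

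Counts of the 3 control and 3 cKO libraries were tested with edgeR 4.0.16 (R 4.3.3) by the quasi-likelihood test with TMM factors, after filterByExpr (minimum count 10, minimum total 15), on 11488 genes, with 2-sided p-values adjusted by Benjamini-Hochberg over all of them. Intervals are 95%. FPKM was used for levels between genes, without a test. Coordinates are from GENCODE M21 (GRCm38), matched by Ensembl ID for 22267 genes, and may differ from the authors' annotation. Promoters are from RefSeq. The fit was also run on simulated counts. These drew every gene independently and with the same added variation, so they do not cover shifts of many genes together in a library.

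Alternatives were DESeq2 1.42.0, limma-voom (limma 3.58.1), RLE factors, total counts, library sizes without mitochondrial genes, no filter, a mean of at least 5 CPM, a replicate block and leaving out each library. Over all genes tested, same-numbered samples did not deviate together (correlations of -0.0300 to 0.0451), so the numbers were not taken as pairs. The mitochondrial share of counts, however, fell in the order of the numbers in both groups. It was 2.05%, 1.77% and 1.76% in control and 3.19%, 1.88% and 1.45% in cKO libraries. No 2 libraries of the same group agreed within sampling noise, and pairs across the groups were not checked. Genes named were all mitochondrial genes, nuclear genes that passed the test, catalytic core subunits, isoform sets and pathway list genes that passed. Values of some genes under this rule are not reported here. Other genes, among them Ndufa7, Ndufab1, Atp5h, the assembly factors and those listed for groups without overlap, were named after their values were seen. The genes and lists were chosen with earlier results of these data known. Depth covers counting error only, and reads shared between near-identical copies (16 of 109 genes searched) or with overlapping genes (43 of 97 nuclear rows) may be misplaced.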

Additional observations from a re-analysis of the deposited data

How the results depend on the processing

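Counts of respiratory chain genes (1 higher, 0 lower, 0 past the fold threshold) were the same under DESeq2, limma-voom, each scaling, each filter and the replicate block. Under the block Uqcrb was at 0.45 with an adjusted p of 0.0488, and 570 genes of all rose and 668 fell. Among the genes named, Cox14 (0.0608), Pprc1 (0.0597) and Dld (0.0571) lost their call under the block by adjusted p, Cox14 also with total counts (0.0517) and Dld with no filter (0.0585). The median of the mitochondrial genes, 0.11 in edgeR without the block, was 0.0094 with it and 0.016 with limma-voom without a block. DESeq2 called 953 of all genes and 12 pathway list genes higher. Scalings moved the median of all genes by no more than 0.02 on the log2 scale.

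Leaving out 1 library in turn gave 0 to 1 respiratory chain genes higher and 0 to 5 lower, 42 to 1000 of all genes higher and 78 to 1030 lower, and 0 to 14 pathway list genes higher and 0 to 12 lower, with the lowest counts without the third cKO library for all genes and list genes and the highest lower counts without the first control library. The median of the mitochondrial genes was -0.34 to 0.32. Ranges for single genes were computed for the 71 named genes alone, pathway list genes included, and not for the other respiratory chain genes. Log2 fold changes crossed 0 for 26 genes, with ranges of -0.32 to 0.27 for mt-Nd1, -0.36 to 0.41 for mt-Nd2, -0.35 to 0.24 for mt-Nd3, -0.61 to 0.060 for mt-Nd4, -0.44 to 0.32 for mt-Nd4l, -0.34 to 0.24 for mt-Nd5, -0.35 to 0.36 for mt-Nd6, -0.21 to 0.31 for mt-Cytb, -0.082 to 0.53 for mt-Co1, -0.092 to 0.53 for mt-Co2, -0.42 to 0.20 for mt-Co3, -0.019 to 0.62 for mt-Atp6, -0.0021 to 0.068 for Ndufs1, -0.080 to 0.086 for Ndufv1, -0.17 to 0.053 for Ndufv2, -0.24 to 0.060 for Sdhc, -0.084 to 0.020 for Uqcrfs1, -0.064 to 0.14 for Cox5b, -0.061 to 0.017 for Atp5a1, -0.029 to 0.17 for Atp5b, -0.15 to 0.047 for Atp5c1, -0.19 to 0.026 for Cox6b1, -0.20 to 0.039 for Cox7a2, -0.039 to 0.24 for Cox8a, -0.18 to 0.17 for Atp5g2 and -0.10 to 0.17 for Atp5g3.

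Fold changes close to 0 also changed sign in other settings. With limma-voom and with the block, mt-Nd1 was at -0.0013 and -0.0030, mt-Nd3 was at -0.042 and -0.047, mt-Nd4l was at -0.084 and -0.090 and mt-Nd5 at -0.038 and -0.041. Atp5a1 was at 0.0029 with total counts. Atp5g2 was at 0.0018 with DESeq2, 0.0016 with RLE factors, 0.013 with total counts, 0.0066 with a mean of at least 5 CPM, 0.0028 with limma-voom and 0.015 with the block. Of 991 values for 71 named genes under the alternatives, 864 kept direction and side of the threshold. The cause of the changes was not tested.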
